A study of Mus musculus with 2 samples.

Results

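The 31 transcripts described here are products and regulators of the pancreas, read out in 2 liver libraries. They comprise 9 digestive proteases, 5 genes of fat digestion, 8 other products of acinar cells, 2 acinar regulators and 7 islet hormones, out of 26440 genes in the tables. Each was found through its RefSeq accession, and all 31 were matched, with 1 accession each. They were selected on their measured reads and FPKM in these 2 libraries, being read in the knockout and mostly near 0 in the wild type, so their difference between the libraries is a description and is not tested here. The livers came from BALB/c mice at day 11 after birth. One library was labelled wild type (WT), the other SRSF2-/- (called the knockout library), and the design text of the series describes the deletion as specific to the liver. What drove the deletion, how many animals made up a library and how the liver was dissected are not stated in the sources used here. SRSF2 is a serine/arginine-rich protein that takes part in pre-mRNA splicing.

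The pancreas holds an exocrine and an endocrine part. Acinar cells make digestive enzymes, mostly as inactive zymogens, store them in granules and release them into ducts that lead to the duodenum. Islet cells release peptide hormones into the blood. Acinar genes are held on by PTF1, a complex of the basic helix-loop-helix protein PTF1A, an E-box partner and an RBPJ-type protein, which reads a bipartite site made of an E-box and a TTTCCC box. Hepatocytes are not known for making pancreatic zymogens.

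The counted reads numbered 22407743 for the wild type and 22111605 for the knockout. Each genotype has a single library, so there is no replicate and no test, and the intervals below are exact 95% intervals for counting error only. Levels are FPKM, reads scaled for transcript length and library size. Srsf2, the deleted gene, was read at 27.9 FPKM in wild-type and 11.8 FPKM in knockout liver. All 12 hepatocyte markers checked had reads in both libraries. Xist stood at 27.4 and 0.0138 FPKM and Y-linked Ddx3y at 0 and 7.02 FPKM, so the libraries also differ in sex-linked transcripts. Differences that go with genotype can therefore not be told apart from differences that go with sex. Over 12477 genes with at least 1 FPKM in either library, the median log2 ratio was 0.55, and 84.5% of these genes were higher in the knockout library.

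Together the 31 transcripts took 30280 reads in the knockout library, 0.137% of its total (0.135% to 0.138%). In the wild-type library they took 1655 reads, 0.00739% (0.00703% to 0.00775%). The share was 18.5-fold higher in the knockout library (17.6 to 19.5). Of the 31, 30 had reads in the knockout library and 15 in the wild-type library. All 30 were at the higher level in the knockout library, and Ctrc was listed at 0 reads in both. In bulk tissue, more cells of a type and more RNA per cell of that type cannot be told apart.

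**Figure D1:**
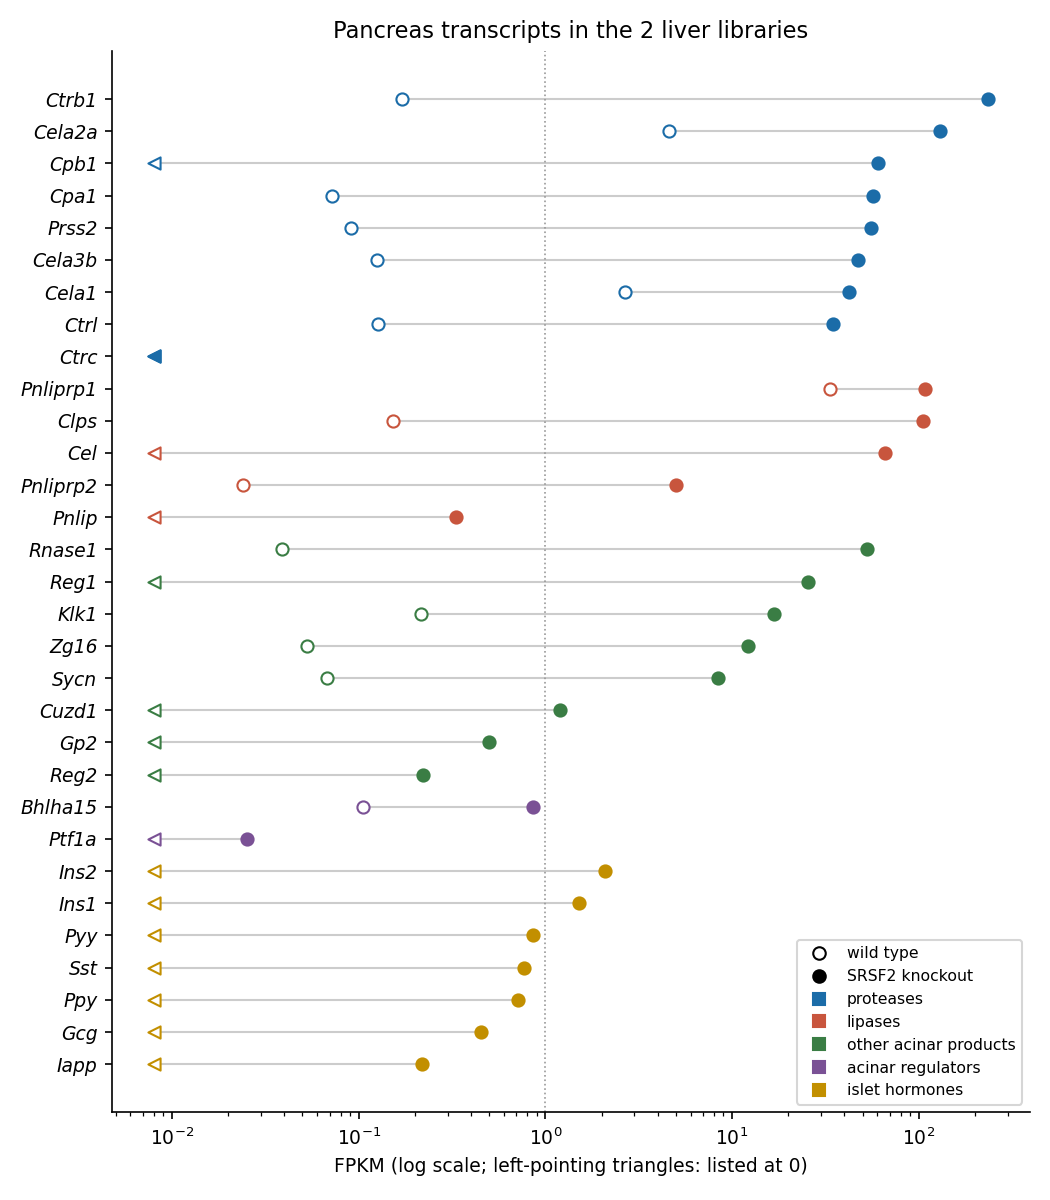
FPKM of each of the 31 transcripts on a log axis, open symbols for the wild-type and filled symbols for the knockout library, coloured by group, with left-pointing triangles for transcripts listed at 0. In the knockout library 15 transcripts lie at 10 FPKM or above, and the islet hormones lie at 2.09 FPKM or below.

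The DNA just upstream of the genes was searched for the boxes that PTF1 reads. RefSeq windows of the 250 bases before the start (build GRCm38.p6, strain C57BL/6J, whereas the reads were aligned to mm9) were found for 27 of the 31 members. The E-box forms CACCTG and CAGCTG and the box TTTCCC were searched on both strands. An E-box of either form stood in 12 of 19 acinar product genes and in 1 of 6 islet hormone genes, beside 27.7% of all 32851 windows. TTTCCC stood in 7 of the 19, beside 21.9% of all windows. An E-box and TTTCCC stood together in 5 of the 19, beside 5.91% of all windows, so most acinar product genes lacked the pair in this window. The stretches of 4 of those 5 are shown, in the 5′ to 3′ sense of the gene, with both boxes in capitals on whichever strand they lie.
Cela1: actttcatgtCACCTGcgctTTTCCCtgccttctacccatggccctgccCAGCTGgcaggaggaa
Ctrb1: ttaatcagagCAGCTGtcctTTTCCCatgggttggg
Prss2: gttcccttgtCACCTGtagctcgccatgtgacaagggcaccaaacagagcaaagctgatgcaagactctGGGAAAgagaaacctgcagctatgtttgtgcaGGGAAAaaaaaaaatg
Cel: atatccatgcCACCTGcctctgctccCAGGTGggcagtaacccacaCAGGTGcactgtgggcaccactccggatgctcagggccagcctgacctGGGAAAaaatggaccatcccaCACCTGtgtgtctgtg
They lie upstream of the annotated starts, at chr15:100687975-100688039 (minus strand), chr8:111691190-111691225 (minus), chr6:41521597-41521713 (plus) and chr2:28563453-28563583 (minus). In Cela1 and Ctrb1 the boxes stand in the same order with 4 bases between them. That arrangement, either E-box form followed by any 4 bases and TTTCCC, was noticed after the sequences were read and occurs in 7 of the 32851 windows. A match is a string of letters, and binding was not measured.

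The digestive proteases carried most of the signal. They took 17659 reads in the knockout library, 58.3% of the reads on the 31 transcripts (57.8% to 58.9%), and 204 reads in the wild-type library. Ctrb1, which encodes chymotrypsinogen B, had 4 wild-type and 5466 knockout reads. Its level was 0.170 and 235 FPKM, 1383-fold higher (540 to 5077), the highest of the 31 in the knockout library. Ctrl, a chymotrypsin-like protease, stood at 0.127 and 34.8 FPKM, so within the knockout library Ctrb1 lay 6.76-fold above it (6.28 to 7.29). Ctrc, chymotrypsin C, had no read in either library, which does not exclude a low level. RefSeq's annotation of the C57BL/6J genome lists Ctrc as a transcribed pseudogene. Prss2, an anionic trypsinogen, had 2 and 1208 reads, at 0.0913 and 55.8 FPKM.

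The elastases split into 2 patterns. Cela3b, which had 3 reads in the wild-type library, stood at 0.126 and 47.1 FPKM, 373-fold higher (127 to 1814). Cela2a was already present in the wild-type library, with 111 reads against 3121, at 4.59 and 130.6 FPKM. Its ratio was 28.5 (23.5 to 34.7). Cela1 was likewise present, with 78 reads against 1228, at 2.66 and 42.4 FPKM, a ratio of 15.9 (12.7 to 20.3). The 2 pancreatic carboxypeptidases, which trim amino acids from the ends that the endopeptidases leave, were nearly level with each other in the knockout library. Cpa1, carboxypeptidase A1, stood at 0.0717 and 56.6 FPKM with 3 and 2340 reads. Cpb1, carboxypeptidase B1, had 0 and 2380 reads and stood at 60.8 FPKM, at least 803-fold higher against a floor of 3 wild-type reads. Cpb1 lay 1.07-fold above Cpa1 (1.01 to 1.14).

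Fat digestion needs lipases, their cofactor colipase and bile salts. These 5 genes took 9724 knockout reads, 32.1% of the reads on the 31 transcripts (31.6% to 32.6%), and 1433 wild-type reads. Clps, which encodes colipase, had 2 and 1360 reads, at 0.153 and 105 FPKM. Cel, the bile salt-stimulated carboxyl ester lipase, had 0 and 3539 reads and stood at 66.2 FPKM, at least 1194-fold higher. Pnlip, the classical pancreatic triglyceride lipase, had 0 and 13 reads and reached 0.334 FPKM (0.178 to 0.570). In suckling rodents Pnlip is known to stay low until weaning, while the related lipases are made earlier.

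Pnlip has its relatives Pnliprp1 and Pnliprp2 as its next genes on the chromosome, in that order. Pnliprp2, a lipase that also takes galactolipids and phospholipids, had 1 and 205 reads and stood at 0.0240 and 4.99 FPKM. Pnliprp1, a relative with little known lipase activity, was the member with the most wild-type reads. It had 1430 reads there and 4607 in the knockout library, at 33.3 and 109 FPKM, a ratio of 3.26 (3.07 to 3.46). Within the knockout library Pnliprp1 lay 325-fold above Pnlip (190 to 612) and 21.8-fold above Pnliprp2 (18.9 to 25.2). The 3 neighbouring genes thus differed widely in level inside 1 library, with none of the intervals overlapping.

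The other acinar products took 2692 knockout reads and 8 wild-type reads. Rnase1, the secreted pancreatic ribonuclease, had 1 and 1342 reads, at 0.0389 and 52.8 FPKM. Reg1, which encodes the secreted C-type lectin lithostathine, had 0 and 514 reads and stood at 25.5 FPKM, at least 173-fold higher. Its chromosomal neighbour Reg2 had 0 and 4 reads, so Reg1 lay 116-fold above it per length (44.9 to 426). Klk1, tissue kallikrein, stood at 0.215 and 16.8 FPKM with 5 and 385 reads. Proteins of the zymogen granule were lower. Zg16, a granule lectin, stood at 0.0529 and 12.2 FPKM, and Sycn, syncollin, at 0.0677 and 8.42 FPKM, each with 1 wild-type read. Cuzd1, a granule membrane protein, had 0 and 71 reads at 1.20 FPKM, and Gp2, the main granule membrane glycoprotein, 0 and 26 reads at 0.501 FPKM.

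The acinar regulators were near the bottom of the range. Bhlha15, which encodes MIST1, a factor that shapes the secretory apparatus of acinar and other secretory cells, had 10 wild-type and 81 knockout reads. It stood at 0.105 and 0.860 FPKM, 8.20-fold higher (4.24 to 17.7). Ptf1a, which encodes the DNA-binding subunit of PTF1, had 0 and 1 read, so no fold is given. Rbpjl, the acinar RBPJ-type subunit of PTF1, is not a member and was picked after its values were seen. It had 0 and 22 reads, at 0.342 FPKM in the knockout library.

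All 7 islet hormones had reads in the knockout library and none in the wild-type library, a contrast on which the members were chosen. At least 10 knockout reads were found for 5 of them, beside 3.32% of all genes with 0 wild-type reads. Ins2 and Ins1, the insulin genes, had 31 and 41 knockout reads and stood at 2.09 FPKM (1.42 to 2.97) and 1.51 FPKM (1.08 to 2.05). Against a floor of 3 wild-type reads, Ins2 was at least 10.5-fold and Ins1 at least 13.8-fold higher. Pyy, peptide YY, had 13 reads at 0.862 FPKM, and Sst, the inhibitory peptide somatostatin, 12 reads at 0.764 FPKM. Ppy, pancreatic polypeptide and the chromosomal neighbour of Pyy, had 9 reads at 0.715 FPKM. Gcg, the glucagon precursor, had 13 reads at 0.455 FPKM, and Iapp, the amylin that beta cells release with insulin, had 4 reads at 0.219 FPKM. Pyy, Gcg and Sst are also made by endocrine cells of the gut. Hormones of beta, alpha, delta and PP cells were therefore all read, and in their order from Ins2 down to Iapp the interval of each overlapped that of the next.

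Acinar transcripts far outweighed islet transcripts. The 7 hormones summed to 123 reads, 0.406% of the knockout reads on the 31 transcripts (0.338% to 0.484%), and to 6.62 FPKM. The 24 acinar members summed to 1067 FPKM, 161 times as much. Ranked by knockout FPKM, Ctrb1 came first, followed by Cela2a, Pnliprp1 and Clps, with overlapping intervals for Pnliprp1 and Clps. Cpb1, Cpa1, Prss2 and Rnase1 followed Cel, each overlapping the next. Of the 29 neighbouring pairs in that order, 17 overlapped and 12 did not, and every pair from Ins2 downwards overlapped.

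**Figure D2:**
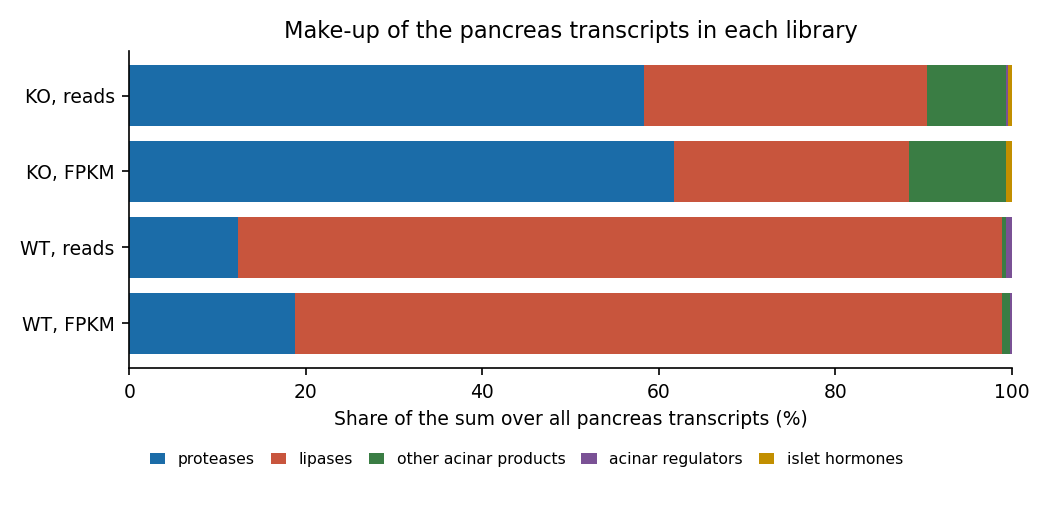
Share of the summed reads or summed FPKM of the 31 transcripts (percent, from 0 to 100) held by each group, for each library. Proteases hold 58.3% of knockout and 12.3% of wild-type reads, and lipases 32.1% and 86.6%.

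The small wild-type signal was not a scaled-down copy of the knockout signal. Proteases held 12.3% of its reads (10.8% to 14.0%) and lipases 86.6% (84.8% to 88.2%), because Pnliprp1 alone held 86.4%. Pnliprp1, Cela2a and Cela1 together gave 1619 of 1655 wild-type reads, and 27 of the other 28 members had at most 5. For every 100 knockout reads, the wild-type library held 31.04 reads of Pnliprp1, 12.3 of Bhlha15, 6.35 of Cela1 and 3.56 of Cela2a. Klk1 came next with 1.30, while Ctrb1 had 0.0732. Without Pnliprp1, Cela2a and Cela1, the other 28 members had 36 wild-type and 21324 knockout reads, and their share of the library was 600-fold higher in the knockout (433 to 857). That split was made after the values were seen.

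**Figure D3:**
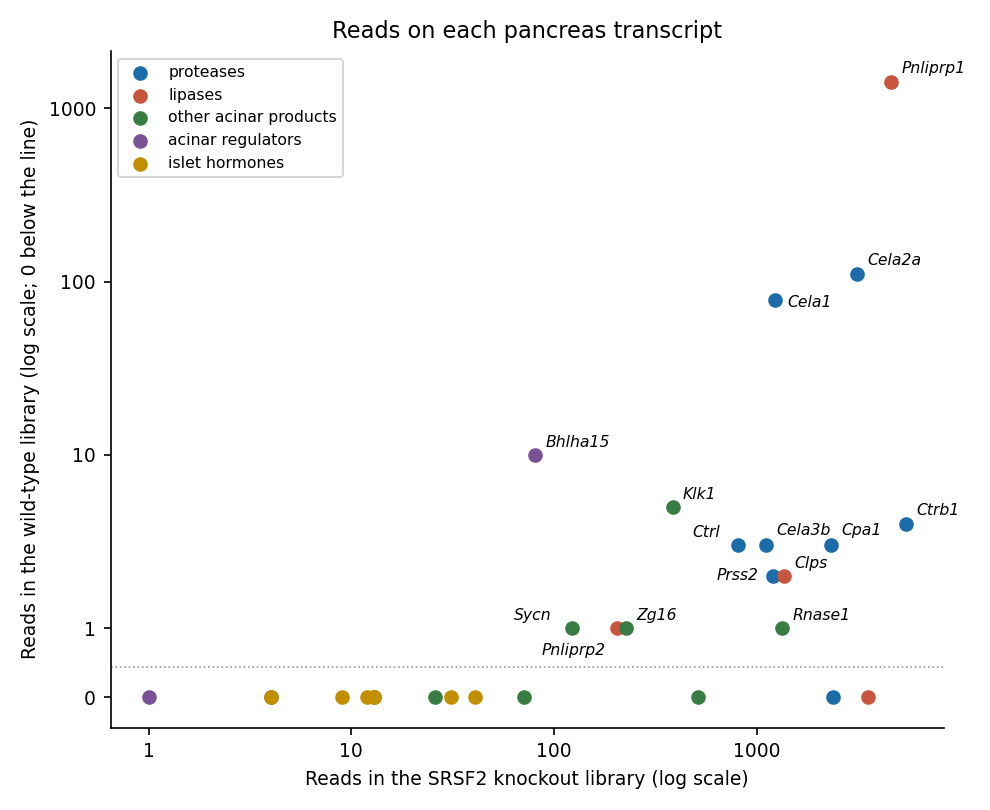
Reads on each transcript in the knockout library (x, log scale) against the wild-type library (y, log scale, with 0 drawn below the dotted line), coloured by group; Ctrc, at 0 in both, is left out. Pnliprp1, Cela2a and Cela1 lie at 1430, 111 and 78 wild-type reads, above all others.

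Of the 31 members, 20 had at least 1 FPKM in either library and could be placed by the 2-fold rule, on the log2(FPKM + 1) scale. All 20 were at least 2-fold higher in the knockout library and 0 were lower, beside 19.2% higher and 2.95% lower of all 12477 genes. With ratios taken relative to the median gene, 18 were at least 2-fold higher, beside 5.67%. At 4-fold the count was 16, beside 2.76%. Since 17 of the 20 passed the 1 FPKM limit through the knockout library alone, and the contrast chose them, nothing is read from these counts. Of the 16 members with 0 wild-type reads, 11 had at least 10 knockout reads, beside 3.32% of the 8985 genes with 0 wild-type reads. At least 10 FPKM in the knockout library was reached by 15 members. Of these, 12 had a read ratio of at least 50, beside 0.696% of all genes at that level. In the same 15, 3 had 0 wild-type reads, beside 0.190%. The 50-fold ratio took the wild-type count as no less than 3 reads. The shares over all genes include the members. Because the contrast chose the members, nothing is read from these counts either.

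Acinar genes that are not members were followed in a list of 30, of which 18 could be placed by the 2-fold rule. At least 2-fold higher were 14 and lower 0, but 12 of the 18 passed the 1 FPKM limit through the knockout library alone, so nothing is read from that count. Of the 6 with at least 1 FPKM in wild-type liver, 3 were at least 2-fold higher, namely Amy1, Amy2a5 and Spink1. The others, Nr5a2, Gata4 and Slc39a5, had log2 ratios from 0.128 to 0.329, below the median gene at 0.55. Amy1, an amylase gene that liver also expresses, had 2757 and 9895 reads, at 58.6 and 213 FPKM. Dmbt1, a secreted scavenger receptor protein of mucosal and glandular epithelia, stood at 0.372 and 32.8 FPKM. The trypsinogen gene Try4 stood at 0 and 23.8 FPKM, and its relative Try5 reached 26.1 FPKM from 0.0471. Of the other islet genes, 3 of 30 could be placed, and Cpe, a prohormone-processing carboxypeptidase that other cells also express, was the one at least 2-fold higher, at 1.17 and 5.80 FPKM. Of these 30 islet genes, 21 had 0 wild-type reads. At least 10 knockout reads were found for 2 of the 21, beside 3.32% of all genes with 0 wild-type reads. Any knockout read at all was found for 14 of the 21, with Scg2 the highest at 30 reads. The remaining 7 had none in either library, among them Neurod1 and Nkx2-2. Of 12 duct genes, 11 could be placed and 4 were at least 2-fold higher, beside 19.2% of all genes. Of these 4, Krt7 and Cldn4 passed the 1 FPKM limit through the knockout library alone, Cldn4 at 0.125 and 33.4 FPKM. Among the 9 duct genes with at least 1 FPKM in wild-type liver, 2 were at least 2-fold higher. They were Krt19, at 1.86 and 15.8 FPKM, and Muc1. Spp1, the highest duct gene in the knockout library, stood at 29.7 and 46.6 FPKM, below 2-fold. Cholangiocytes of the liver express many of these duct genes too.

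Markers of some other tissues also differed between the libraries. The 12 skeletal muscle genes summed to 0.195 FPKM in wild-type and 84.5 FPKM in knockout liver, 8 of them at 0 wild-type reads. All 9 that could be placed passed the 1 FPKM limit through the knockout library alone, so their being higher was fixed by the limit. Acta1, skeletal muscle actin, led at 0 and 33.7 FPKM. The 14 intestinal genes summed to 23.7 and 128 FPKM, of which Tff3 made 80.2 FPKM in the knockout library, while Cdx2, Sis, Alpi and Gip had no read in either. The 9 matched stomach genes summed to 5.85 and 8.49 FPKM. Of 8 matched salivary gland genes, 7 had no read in either library and the eighth, Aqp5, had 1 and 5 reads. Adipose genes summed to 0.524 and 34.7 FPKM, nearly all of it Cidec, a lipid droplet gene, with Plin1, another lipid droplet gene, at 0 and 49 reads and Adipoq, the adipocyte hormone adiponectin, at 0 and 4. Smooth muscle genes summed to 19.3 and 46.1 FPKM, mesothelium genes to 150 and 695 FPKM, mostly the keratins Krt8 and Krt18 that hepatocytes also express, and B cell genes to 10.2 and 6.72 FPKM. The 12 hepatocyte genes summed to 128222 and 59975 FPKM, with 6 at least 2-fold lower and 1, Tat, at least 2-fold higher at 122 and 386 FPKM. The part of any of these tissues in the pancreas signal was not tested.

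**Figure D4:**
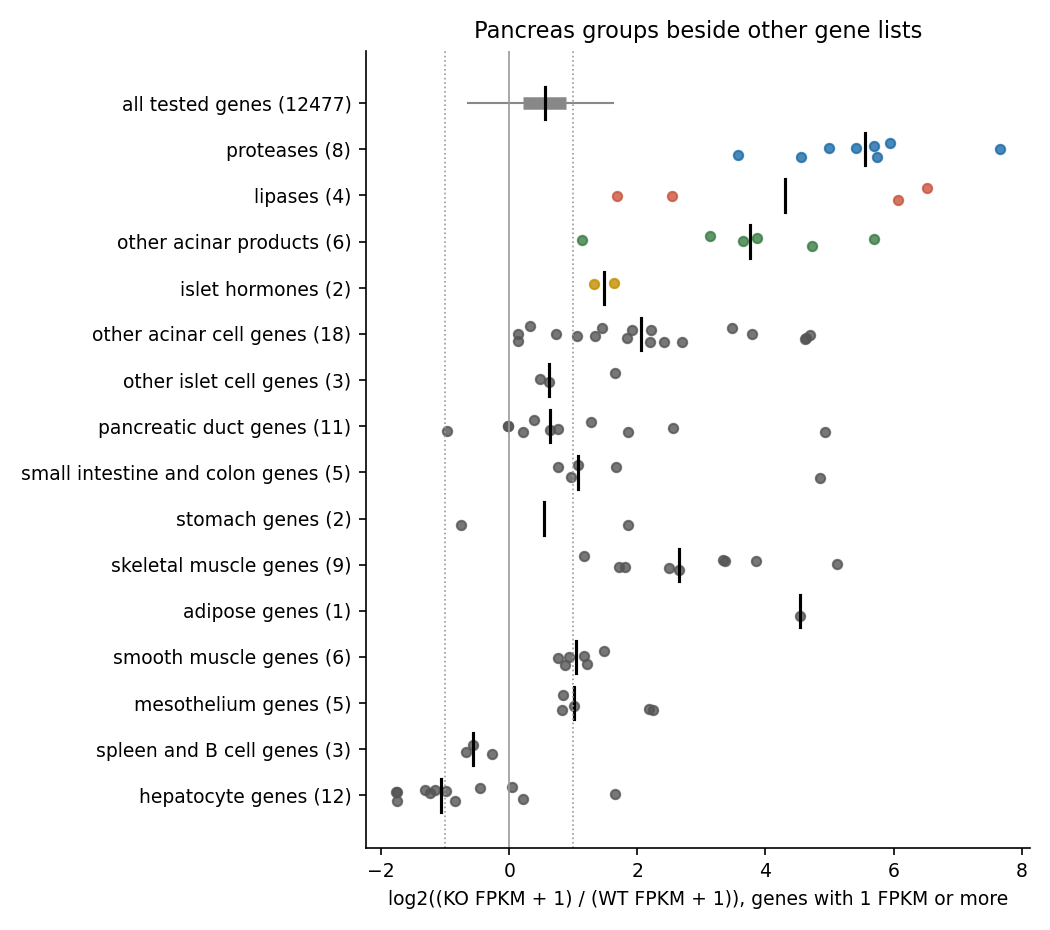
Log2((KO FPKM + 1)/(WT FPKM + 1)) of each gene with at least 1 FPKM in either library, by list, with the number of genes in brackets and medians as black bars. For all 12477 genes the thick bar spans the quartiles and the thin line the 5th to 95th percentile. Proteases lie from 3.57 to 7.66 and hepatocyte genes have a median of -1.07. Of the 20 members shown, 17 passed the 1 FPKM limit through the knockout library alone. So did 12 of the 18 other acinar genes and all skeletal muscle genes shown. For such genes a position above 0 was fixed by the limit.

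Some members have close relatives, and the sources used here do not state how reads shared between relatives were counted. Prss1, an acinar gene that is not a member, was listed at 0 wild-type reads and 0.00779 FPKM. Its listed count and its FPKM thus did not match, while the intervals take listed counts as whole reads. In GENCODE M21 transcripts, 22 of the 31 members shared no stretch of 36 bases with a transcript of another gene. Over 10% of such stretches were shared for Cela3b, 42.1%, with Cela3a, for Klk1, 41.6%, mostly with Klk1b5, and for Ptf1a, 37.0%, with its antisense gene Ptf1aos. The same held for Cela2a, 26.6%, with transcripts assigned to its neighbour Ctrc, and for Prss2, 17.1%, mostly with Try4. Ins1 and Ins2 shared 35 such stretches, 3.41% of those in Ins1 and 7.90% of those in Ins2. Read length is not stated in the sources used here, and these shares show where reads could be ambiguous and not how many were.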

How the data were processed

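Per the labels, liver was frozen, RNA extracted with Trizol and libraries made by standard Illumina methods. The submitters' processing notes name Bowtie 0.12.2 and build mm9. The counter, annotation release, strand setting and any pooling are not stated in the sources used here. Per the file headers, the authors deposited, by RefSeq accession, a whole-number read count and an FPKM.

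Accessions were named through RefSeq (GRCm38.p6) and GENCODE M21, 23419 of 26449, and summed to 26440 genes. Folds are ratios of FPKM. Their 95% intervals come from the reads by the exact Clopper-Pearson method, and levels carry exact Poisson intervals. With 0 wild-type reads the fold is taken against 3 reads, and its lower 95% limit comes from the exact interval at 0 reads. Size classes used log2((KO FPKM + 1)/(WT FPKM + 1)), which understates changes of low genes, and a 1 FPKM filter. With 1 library per genotype no test was made. The members and lists were chosen with earlier results of these data known. All members are named, with up to 4 genes of each other list (the 2 highest in the knockout and the 2 with the largest ratio, with genes at 0 in both) and up to 12 non-members of like pattern. Other genes were picked after their values were seen. Ratios were tested on simulated data only for genes well read in both libraries, so the low wild-type counts of most members were not covered. Alternatives covered the pseudocount, filter, scaling, size rule and members left out. Scripts ran in Python 3.11.15 (scipy 1.17.1, pandas 2.3.3, numpy 2.4.6, matplotlib 3.10.9).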

Additional observations from a re-analysis of the deposited data

How the results depend on the processing

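No paired analysis was possible because each genotype has 1 library, and no replicate could be left out. The count of 20 members at least 2-fold higher ranged from 16 to 26 over its alternatives, and 0 were lower under each. The count of other acinar genes, 14, became 8 with a pseudocount of 5 FPKM, 9 with a filter of 5 FPKM and 9 at 4-fold, where fewer genes can pass. The count of other islet genes, 1, became 0 with a pseudocount of 5 FPKM, 2 as TPM and 0 at 4-fold. The knockout share of 0.137% became 0.251% by FPKM, 0.112% without Ctrb1, 0.105% without Prss2, Ins1, Ins2, Ctrb1 and Klk1, and 0.0964% without Pnliprp1, Cela2a and Cela1. The wild-type share of 0.00739% became 0.00970% by FPKM and 0.000161% without those last 3. The protease share of 58.3% became 61.8% by FPKM, 49.1% without Ctrb1 and 47.5% without the 5 genes named above. The islet share of 0.406% became 0.617%, 0.496% and 0.220% in the same order. These shares moved beyond their counting intervals. All 15 member ratios moved by less than their intervals when taken as shares of the library reads. That outcome was fixed beforehand, because both measures scale the same reads by nearly the same factor. Counts below about 10 reads, such as those of Ptf1a, Reg2 and Iapp, leave levels uncertain by several-fold.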

Other observations

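The pattern of the pancreas transcripts, far lower in the wild-type than in the knockout library, was shared by a small set of other genes. The rule used set no limit on the wild-type level. Among 4740 genes with at least 10 FPKM in the knockout library, 33 (0.696%) had a read ratio of at least 50, with the wild-type count taken as no less than 3 reads. Of these 33, 12 were members, 5 were other acinar genes, 2 were listed skeletal muscle genes, 1 was a duct and 1 an adipose gene, and 12 were on no list. Leading the non-members was Acta1 with 0 and 1387 reads. Hamp, which encodes the iron hormone hepcidin, had 7 and 2011 reads. Cldn4, a tight junction claudin, had 6 and 1588 reads, and Sprr1a, a cornified envelope protein, 17 and 3694. Krt13 and Krt4, a keratin pair of internal stratified epithelia such as the oesophagus, had 0 and 626 reads and 1 and 617 reads. Cyp2c38, a cytochrome P450 gene, had 5 and 833 reads, Myl1, a fast muscle myosin light chain, 0 and 417, and Plat, tissue plasminogen activator, 17 and 2279. The trypsinogen gene Try5 had 1 and 547 reads, and Try4 0 and 498. Genes with 0 wild-type reads and at least 10 FPKM in the knockout numbered 9 of the 4740 (0.190%), and 3 of them, Cel, Cpb1 and Reg1, were members.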
